A study of Caenorhabditis elegans with 15 samples.

Results

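The comparison set the arrays numbered biological replicate 1 against those numbered 2 and 3 in whole Caenorhabditis elegans, over 4 exposure groups that each held 1 array of every number. The arrays were sorted by title. The 4 arrays with number 1 in the water, Z-medium, August and October groups were set against the 8 other arrays of the same groups. Thus 12 of the 15 arrays of the series entered, and exposure group was kept as a block. Number 1 was chosen with earlier results of these data known, among them that replicate 1 stood apart. The count of calls, and its contrast with replicate 3 against replicate 2, are not independent of that choice. All worms were of the N2 wild-type strain, grown at 20 °C on NGM agar with OP50 bacteria, under exposure from hatching on and harvested as day 1 adults. Water and Z-medium were the control exposures. The August and October worms received a filtrate of Lake Stößensee sampled in that month, dosed at 200% of the original AOBr content. The remaining group, which was left out of the comparison and is described at the end, received a filtrate of a Microcystis aeruginosa batch culture at 40% of its AOBr content. The labels call the replicates biological and state that each condition was cultivated in triplicate. They give no date, plate, extraction or hybridisation batch for any number, so what worms or steps the arrays of 1 number shared was not known, and the p-values measure the spread between these arrays.

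A C. elegans hermaphrodite makes a limited store of sperm in its last larval stage and then switches to oocytes, so that a young adult carries sperm, maturing oocytes and developing embryos together. Its body is covered by a cuticle of collagens and cuticlins that is shed and rebuilt at each molt, with waves of expression of collagens, hedgehog-related proteins, proteases and other molting genes. Heat shock proteins of the hsp-16 and HSP70 families are induced by heat and other conditions that unfold proteins.

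The deposited values were linear MAS5 signals scaled by the authors to 1 trimmed mean per array. Array medians were 111 to 113 in the 4 replicate 1 arrays and 99.5 to 109.8 in the 8 others. Signals of the 5 vitellogenins, yolk proteins of adult hermaphrodites, ranged from 8602 to 30069.5 over the replicate 2 and 3 arrays. The log2 difference between 3' and 5' control probe sets, a sign of RNA integrity, overlapped between replicate 1 and the others for actin, catalase, Gapdh and ubiquitin. The hybridisation spike-in bioD was brighter in replicate 1, at 12.38 to 12.46 against 12.04 to 12.37 on the log2 scale, while the spike-in cre differed by 0.01. For bioC the arrays read 9.89 to 10.17 against 9.49 to 9.91, a difference of 0.33, and for bioB 5.56 to 5.89 against 4.91 to 5.97, a difference of 0.25, both with overlap. Spike-ins added before labelling differed by -0.17 to -0.01 and overlapped. The part of these values in the results was not tested.

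Many sperm, cuticle collagen and hedgehog-related genes were higher in replicate 1 than in replicates 2 and 3. So were the heat shock genes hsp-70 and hsp-16.2, which passed the filter on low signal only through the replicate 1 arrays. Some genes expressed in early embryos and some oocyte regulators were lower. In all, 2394 of 13529 probe sets tested passed at an adjusted p under 0.05 (17.7%; limma with Benjamini-Hochberg adjustment), of which 1490 were higher (11.0%) and 904 lower (6.68%) in replicate 1. Taken as 1 brightest probe set per gene, 1910 of 10272 genes passed (18.6%), with 1197 higher (11.7%) and 713 lower (6.94%). Most differences were small: the median absolute log2 difference of the probe sets that passed was 0.44, and 71 rose and 21 fell by 2-fold or more.

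The groups were also described one by one. In 2773 of all probe sets tested (20.5%) the replicate 1 array lay outside both other arrays of its group, on the same side, in all 4 groups. Of the 2394 that passed 1989 (83.1%) did so. These were called on the same arrays for a shift shared by the groups, so a high share was partly built in. All 4 replicate 1 arrays lay above the 8 others in 1088 probe sets (8.04%) and below them in 542 (4.01%). Leaving out Z-medium replicate 1 took the count that passed to 1421, leaving out August replicate 1 to 1439 and leaving out water replicate 1 to 1572. Scaling each array to its median, in place of the trimmed mean, lowered the median log2 difference of all probe sets tested from -0.01 to -0.11 and turned the split to 1046 higher and 2896 lower. Quantile normalization gave 1284 higher and 1092 lower. Under median scaling the count of falls thus moved more than that of rises, and each list below is read against the median of all genes. List medians under median scaling stand beside the -0.11 of all probe sets tested. A changed sign there is not by itself a changed position against all probe sets.

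**Figure D1:**
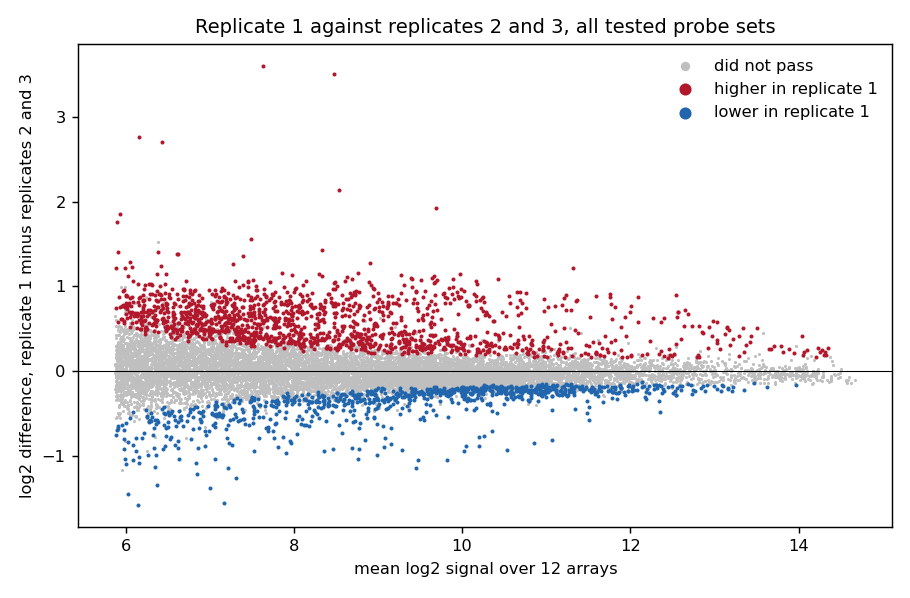
Log2 difference, replicate 1 minus replicates 2 and 3, against mean log2 signal for the 13529 probe sets tested, 1 point each, with the 1490 higher ones in red, the 904 lower ones in blue and the rest in grey. Rises of over 2 log2 units were few, and calls at high signal were mostly of small size.

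**Figure D2:**
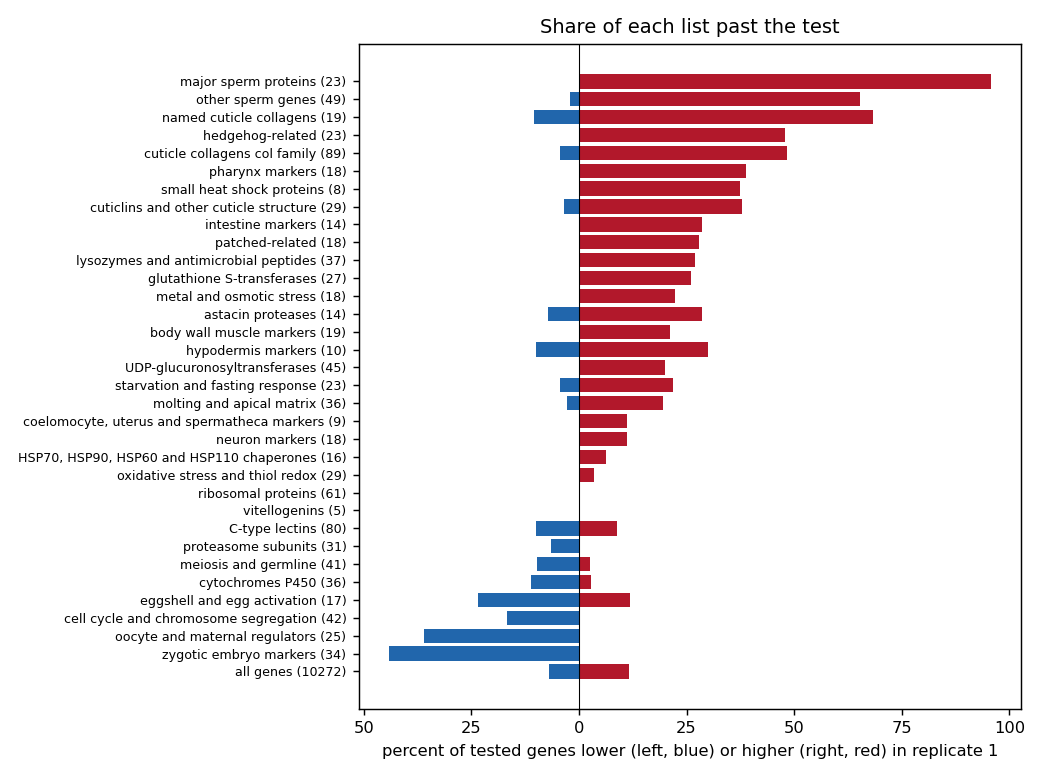
Percent of the tested genes of each list that passed higher (red, right) or lower (blue, left) in replicate 1, with the number of genes tested in brackets and all genes at the bottom. Sperm and cuticle lists stand at the top and zygotic embryo markers at the bottom of the lists.

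Genes of sperm were higher in replicate 1. Major sperm protein is the cytoskeletal protein of the crawling sperm and also signals to the oocyte. Of its 23 genes 22 rose and 0 fell (95.7% against 18.6% of all genes). Their median log2 difference was 0.49 against -0.01 for all genes. Every msp probe set carried the array's suffix for probes that can match several transcripts, so these near-identical genes are not separate measurements. For msp-142 the signal was 5524, 5413, 5388 and 4772 in water, Z-medium, August and October replicate 1, and 2810.4, 3462 and 3679 as the lowest, median and highest of the 8 other arrays. All 4 arrays of replicate 1 stood above all others, and the log2 difference was 0.64 ± 0.07 (SE; limma adjusted p = 2.73e-05). For msp-74 the 4 arrays read 9028, 8622, 8334 and 7468 against 4038 to 6004, again without overlap (log2 difference 0.69 ± 0.08, limma adjusted p = 3.96e-05). The 7 probe sets annotated only to several msp genes at once, which had mean signals of 15764 to 21213, differed by 0.14 to 0.25, and 3 of them passed. Under median scaling 14 of the 23 msp genes rose and their median was 0.38. In whole worms, more cells of a type and more of its RNA per cell cannot be told apart.

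Sperm genes outside the msp family moved the same way. Of 64 such genes on the array, 49 passed the filter on low signal. Of these 32 rose and 1 fell (67.3% against 18.6% of all genes), with a median of 0.66. The gene nspd-4, of a nematode-specific peptide family expressed in sperm, gave 4149, 3963, 3495 and 3772 in replicate 1 and 1959, 2112 and 2643 as lowest, median and highest of the others. No array of the others reached the lowest of replicate 1 (log2 difference 0.83 ± 0.07, limma adjusted p = 4.2e-06). For ssq-3, of a sperm-specific family, the 4 arrays read 1225, 1509.8, 1421 and 1611 against 665 to 848, a difference of 0.91 ± 0.08 (limma adjusted p = 5.87e-06). The sperm-specific genes ssp-10, ssp-35 and ssp-33 rose by 0.66, 0.86 and 0.81. Probe sets of nspd-4, ssq-3, ssp-10 and ssp-33 carried the same suffix as those of the msp genes. Members of these families are thus not fully separate measurements either. The Argonaute gene alg-3, which is needed for normal sperm development, was among the 12 largest rises of the array. Its signals were 328, 457, 270 and 241 in replicate 1 and 69.9 to 222 in the others (log2 difference 1.36 ± 0.21, limma adjusted p = 0.000444). The member that fell was elt-1, a GATA factor of epidermal fate that also acts in sperm gene expression, at -0.64 ± 0.11. It was named after its value was seen, and is also counted among the zygotic embryo markers below. The count of 32 lay between 28 and 31 with each of the 12 arrays left out.

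Genes of the eggshell and of egg activation changed in both directions. Of 17 such genes, 2 rose and 4 fell (35.3% against 18.6% of all genes), with a median of -0.11. The gene that rose most was spe-11, whose product is brought into the egg by the sperm, at 341, 379, 389 and 309 against 156 to 247 (log2 difference 0.79 ± 0.13, limma adjusted p = 0.000644). It is also counted among the sperm genes that rose. The chondroitin proteoglycan gene cpg-9 rose by 0.45 ± 0.10. Among those that fell were gna-2, an enzyme that makes the precursor of eggshell chitin, with 1563, 1758, 1674 and 1764 against 1895 to 2145 (-0.27 ± 0.05, limma adjusted p = 0.00298), and the proteoglycan gene cpg-4 at -0.28 ± 0.06. A further probe set of cpg-4 did not pass (-0.21 ± 0.10, limma adjusted p = 0.172). Without water replicate 1 the count of falls was 2, and the kinase gene mbk-2, which acts at the turn from oocyte to embryo, no longer passed (adjusted p = 0.0696 without it); its other probe sets did not pass.

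Regulators of oocytes and of maternal messages were lower by small amounts. Of 25 genes 0 rose and 9 fell (36% against 18.6% of all genes), with a median of -0.14, and 24 of the 25 had a negative difference. The smallest p was that of nos-2, a germ cell regulator of translation: 1015, 1096, 1024 and 1149 in replicate 1 against 1293, 1358 and 1598 as lowest, median and highest of the others (-0.40 ± 0.07, limma adjusted p = 0.000616). Every replicate 1 array lay below every other array. For lin-41, a TRIM-NHL protein that keeps oocytes from maturing early, the values were 1483, 1512, 1649.9 and 1589.8 against 1763 to 2345 (-0.32 ± 0.06, limma adjusted p = 0.00129), and its second probe set gave -0.30 ± 0.09. The zinc finger gene mex-6 of early embryo polarity fell by 0.24 on the log2 scale. The RNA-binding protein genes spn-4 and pos-1 passed at -0.28 and -0.21, but lost the call without Z-medium replicate 1 (adjusted p = 0.0527 and 0.0533), and a second probe set of each did not pass. The count of 9 depended on the scaling and on 1 array: it was 22 under median scaling, 11 after quantile normalization and 3 without Z-medium replicate 1.

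Genes of meiosis, the germline and the cell cycle had small negative differences for the most part, and few passed. Of 41 meiosis and germline genes 1 rose and 4 fell, a share of 12.2% that passed against 18.6% of all genes, with a median of -0.08. In 32 of the 41 the difference was negative, and the summed signal was 56332 to 57883 in replicate 1 and 58772 to 62057 in the others. The calls that fell were gld-3, mes-4, syp-2 and glh-2, at -0.33 to -0.19, and the germline helicase gene glh-1 was the rise, at 0.17 ± 0.05. Each of these 5 calls was lost with at least 1 array left out: gld-3 without the replicate 1 array of August or October (adjusted p up to 0.0508), mes-4 without water replicate 1 (adjusted p = 0.135), and the other 3 without any of several arrays. Further probe sets of gld-3, mes-4 and glh-1 did not pass. Of 42 genes of the cell cycle and chromosome segregation 0 rose and 7 fell (16.7%), with a median of -0.13 and 39 negative differences. Their summed signal was 97894 to 102663 in replicate 1 and 106111 to 114737 in the others, so neither of the 2 sums overlapped. The replicative helicase gene mcm-5 gave 2687, 2788, 2567 and 2782 against 3065 to 3661 (-0.27 ± 0.06, limma adjusted p = 0.00418), so the groups of arrays did not overlap. The centrosome gene spd-2 and the cyclin B3 gene cyb-3 fell by 0.27 and 0.23 on the log2 scale, and a second probe set of cyb-3 did not pass. Under median scaling 16 meiosis and germline genes and 28 cell cycle genes fell, and without Z-medium replicate 1 the cell cycle count was 3.

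Of the 5 vitellogenins 0 passed by limma, and 2 had an unadjusted p under 0.05. In vit-5 replicate 1 read 22770.4, 22317, 24936 and 24572 and the others 23335 to 30069.5, with a log2 difference of -0.14 ± 0.06 (limma adjusted p = 0.128). The other differences were -0.09 for vit-1, -0.07 for vit-2, -0.11 for vit-4 and -0.04 for vit-6, and the arrays overlapped in each. Under median scaling, which lowers replicate 1, 4 of the 5 passed as lower.

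Some transcripts of the early embryo's own genome were lower in replicate 1. Of 61 zygotic embryo markers on the array 34 passed the filter. Of these 0 rose and 15 fell (44.1% against 18.6% of all genes), with a median of -0.35. In vet-6, one of the very early transcripts of the embryo, replicate 1 read 225, 191, 281 and 238 and the others 387, 444 and 482 as lowest, median and highest. The highest of the 4 lay well below the lowest of the 8 (log2 difference -0.92 ± 0.09, limma adjusted p = 1.18e-05). The genes vet-1 and vet-2 fell by 0.79 and 0.64 on the log2 scale, and a second probe set of each fell as well, at -0.69 and -0.66. For sdz-28, of a set of zygotic genes that depend on the maternal factor SKN-1, the signals were 80.0, 66.6, 82.4 and 54.6 against 134 to 332 (-1.55 ± 0.18, limma adjusted p = 4.17e-05). The related sdz-25 fell by 1.03 on the log2 scale. Summed over the 34 genes, the 4 replicate 1 arrays ranged from 14366 to 15015 and the others from 15977 to 17352. The count was 23 under median scaling, 18 after quantile normalization and 9 without Z-medium replicate 1.

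Many col collagens of the cuticle rose. Of 128 genes of the col family 89 passed the filter; 43 of these rose and 4 fell (52.8% against 18.6% of all genes), with a median of 0.34. The summed signal of the family overlapped, at 412334 to 440876 in replicate 1 and 369656 to 422883 in the others. For col-104 replicate 1 read 1266, 1431, 1337 and 1286 against 487, 616 and 722 as lowest, median and highest of the others. The groups did not overlap, and the log2 difference was 1.10 ± 0.09 (limma adjusted p = 4.2e-06). The collagen gene col-71 gave 1925, 2002, 1800 and 1763 against 778 to 1140.4 (1.06 ± 0.08), and col-49, col-109 and col-77 rose by 1.08, 1.02 and 0.92. The 4 that fell, named after their values were seen, were col-165 at -0.91, col-95 and col-101 at -0.26 and col-143 at -0.17. Without Z-medium replicate 1 or August replicate 1 the falls numbered 2, while the count of rises lay between 40 and 44 with each of the 12 arrays left out.

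Collagens named for the body shape of their mutants split in 2 directions. Of 19, 13 rose and 2 fell (78.9% against 18.6% of all genes), and the median was 0.46. Their sums of 61607 to 70518 in replicate 1 overlapped 54964 to 65064 in the others. The gene sqt-1 had signals of 871, 867, 694 and 671 in replicate 1 and 345 to 436 in the others (0.98 ± 0.09, limma adjusted p = 1.17e-05). In dpy-5 the values were 3703, 3909, 3483 and 3487 against 1545 to 2522 (0.90 ± 0.09), and rol-1 rose by 0.72. The falls were as clear: dpy-17 read 332, 280.3, 249 and 290.4 against 432 to 621 (-0.92 ± 0.10, limma adjusted p = 2.72e-05). For dpy-14 the 4 arrays gave 111, 84.8, 67.8 and 95.2 and the others 153, 218 and 302 as lowest, median and highest (-1.26 ± 0.18, limma adjusted p = 0.000199). All 4 replicate 1 arrays lay below all others in both genes.

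Other structural genes of the cuticle rose in part. Of 53 cuticlins, cuticle enzymes and abu genes 29 passed the filter. Of these 11 rose and 1 fell (41.4% against 18.6% of all genes), with a median of 0.27. The abu genes, which encode repeat-rich proteins related to those of the pharyngeal cuticle, led this list: abu-8 read 1520, 1729.7, 1462 and 1748 against 609 to 989.7 (0.95 ± 0.09, limma adjusted p = 9.22e-06). The genes abu-11, abu-6, abu-14 and abu-15 rose by 1.00, 0.88, 0.86 and 0.83, each without overlap of the arrays. Probe sets of abu-6, abu-8 and abu-15 carried the suffix for probes that can match several transcripts. These genes are thus not fully separate measurements. The fall was in the cuticlin gene cut-3, at -0.43, and did not last with any of 7 arrays left out; it was named after its value was seen. Pharynx markers moved with this list, as given below.

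**Figure D3:**
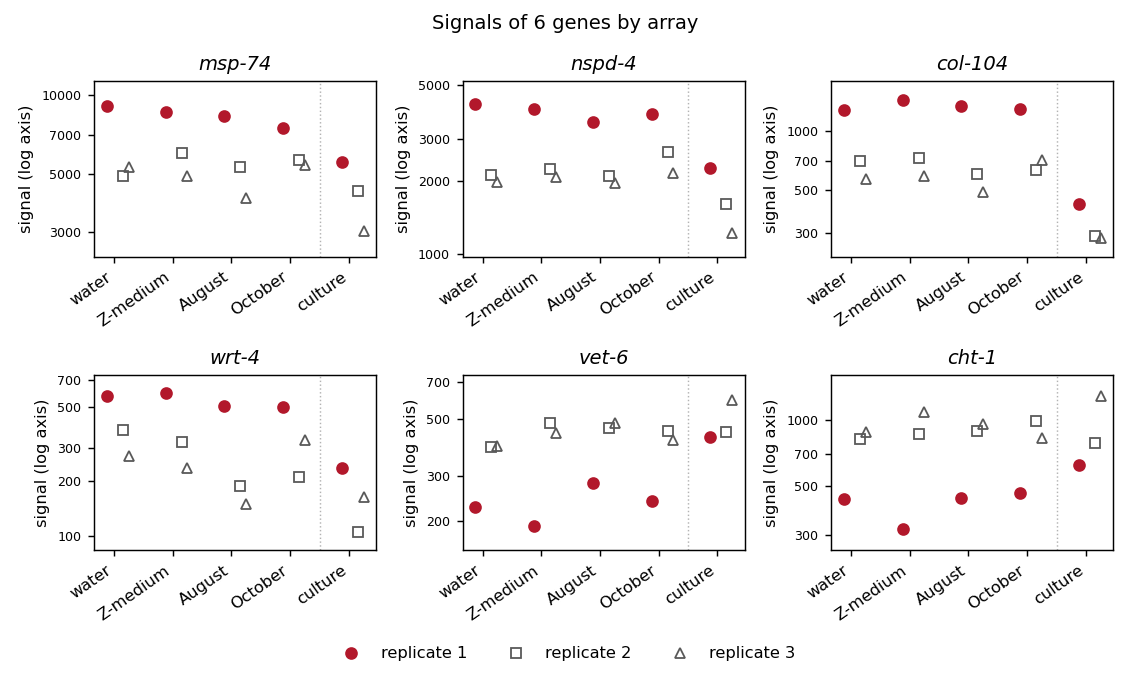
Signal of 6 genes on every array (log axis), with replicate 1 as filled red circles, replicate 2 as open squares and replicate 3 as open triangles, by exposure group; the dotted line sets off the culture arrays, which were not in the test. In the 4 groups left of the line replicate 1 is above both others in msp-74, nspd-4, col-104 and wrt-4 and below both in vet-6 and cht-1.

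Molting genes rose in smaller number than the collagens. Of 36 tested genes of molting and the apical matrix 7 rose and 1 fell (22.2% against 18.6% of all genes), with a median of 0.14. The gene mlt-8, named for the molting defect that follows its loss, gave 587, 548, 477 and 515 in replicate 1 and 243, 325 and 383 as lowest, median and highest of the others. Its arrays did not overlap (0.72 ± 0.11, limma adjusted p = 0.000274), nor did those of mlt-9, which rose by 0.71 but missed the threshold on a second probe set (0.64 ± 0.21, limma adjusted p = 0.0517). For mlt-7, a peroxidase that cross-links the cuticle, the values were 512, 579, 607 and 506 against 295 to 424 (0.59 ± 0.10, limma adjusted p = 0.000943). This gene is also counted among the rises of the list of other cuticle structure. The hedgehog-like gene qua-1 rose by 0.90 ± 0.16 and the lipocalin gene lpr-5 by 0.61 ± 0.14. The nuclear receptor gene nhr-25, which is required for molting, was the fall, at -0.58 ± 0.17 (limma adjusted p = 0.0296); it was named after its value was seen, and was lost without the replicate 1 array of Z-medium, August or October.

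Many of the tested hedgehog-related genes rose: 11 of 23 rose and 0 fell (47.8% against 18.6% of all genes), with a median of 0.32. A further 30 were below the filter. These worm-specific relatives of hedgehog are secreted proteins with roles in molting and the cuticle. In wrt-4 replicate 1 read 571, 598, 507 and 499 against 149, 252 and 378 as lowest, median and highest of the others (1.12 ± 0.15, limma adjusted p = 0.000146). The gene grl-16 gave 1168, 1417, 1098 and 1140.3 against 453 to 784 (1.07 ± 0.12, limma adjusted p = 2.79e-05), and grl-7, grl-21 and grd-14 rose by 0.91, 0.82 and 0.74. Replicate 1 lay above all other arrays in all of these 5.

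Relatives of the hedgehog receptor and the astacin proteases, some of which act at the molt, gave weaker results. Of 18 patched-related genes 5 rose and 0 fell (27.8% against 18.6% of all genes), with a median of 0.28. The gene ptr-23 was at 834, 817, 758 and 702 against 511 to 707 (0.36 ± 0.07, limma adjusted p = 0.00222). Of its 3 other probe sets 2 passed. This was the only one of the 5 genes whose call held with each array left out, and without the replicate 1 array of water, Z-medium or August 2 rose. Of 14 astacin genes 4 rose and 1 fell (35.7%), with a median of 0.19. The call of nas-7 held throughout, at 228, 233, 224 and 224 against 114 to 172 (0.60 ± 0.10, limma adjusted p = 0.000907), while those of nas-15, nas-20, nas-38 and nas-24 were lost in some. Without water replicate 1 the count of rises was 1.

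The steepest rises of the array were in heat shock genes. For hsp-70, an HSP70 chaperone that is nearly silent without stress, replicate 1 read 293, 176, 172 and 496 in water, Z-medium, August and October, and the others 16.2, 42.8 and 60.1 as lowest, median and highest. The highest of the others lay below the lowest of replicate 1, and October replicate 1 was the brightest. The mean of the others lay below the filter level of 58.8, so the rise is given as at least 4.38-fold; the log2 difference was 2.77 ± 0.32 (limma adjusted p = 3.73e-05). For the small heat shock protein gene hsp-16.2 the values were 395, 194, 142 and 743 against 21.3, 50.9 and 95.9, a rise of at least 5.10-fold (2.70 ± 0.39, limma adjusted p = 0.000254). The mean of the others lay below the filter level here too, so the same limit holds for hsp-16.2. The hsp-16 genes are near copies of each other, so its signal may include theirs. Both hsp-70 and hsp-16.2 passed the filter only through the replicate 1 arrays. Their p-values are therefore not independent of that filter, and their log2 differences rest in part on signals under it. The 4 probe sets annotated to several heat shock genes at once, looked up after their values were seen, also rose, by 1.92 to 3.60 on the log2 scale, and in each the 4 arrays lay above the 8.

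Few other members of the heat shock lists passed. Of 8 small heat shock protein genes that passed the filter 3 rose and 0 fell (37.5% against 18.6% of all genes), with a median of 0.18. Besides hsp-16.2 these were hsp-17, at 1221, 971, 982 and 1304 against 591 to 1024 with overlap (0.49 ± 0.10, limma adjusted p = 0.0044), and hsp-25, at 0.23 ± 0.06. The call of hsp-25 was lost without the replicate 1 array of water, Z-medium or August (adjusted p = 0.0589 to 0.13). Of 16 chaperones of the HSP70, HSP90, HSP60 and HSP110 families hsp-70 alone passed (6.25% against 18.6% of all genes). The list median was 0.03, or -0.07 under median scaling, where that of all probe sets tested was -0.11. Without Z-medium replicate 2 or August replicate 3 a second chaperone passed. The summed signal of each list overlapped, at 23600.2 to 26615 in replicate 1 and 23762 to 28416 in the others for the small heat shock proteins, and at 64239 to 69345 and 62691 to 66558 for the chaperones.

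**Figure D4:**
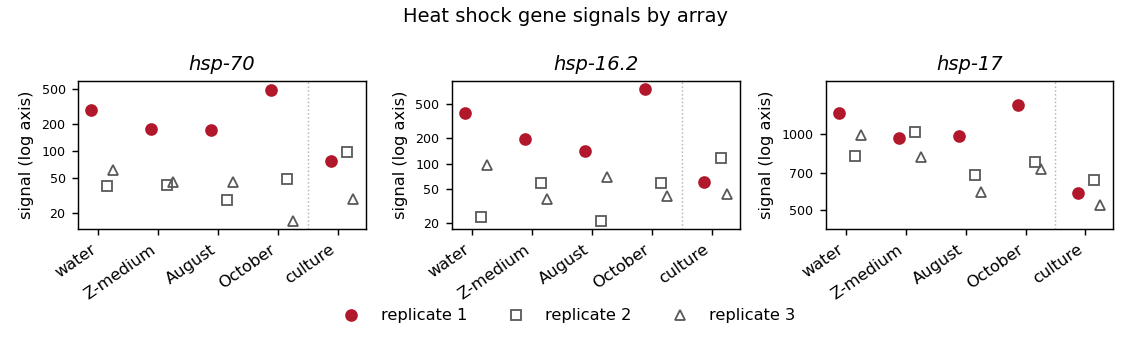
Signals of hsp-70, hsp-16.2 and hsp-17 on every array (log axis), with symbols as red circles for replicate 1, open squares for replicate 2 and open triangles for replicate 3. In hsp-70 and hsp-16.2 replicate 1 lies above both others in the 4 groups of the test, while in the culture arrays right of the dotted line it lies between them.

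Lists of other stress responses differed in the share that passed, which was 3.45% for oxidative stress and thiol redox, 22.2% for metal and osmotic stress and 26.1% for starvation, against 18.6% of all genes. Of 29 genes of oxidative stress and thiol redox 1 rose and 0 fell: the intestinal thioredoxin gene trx-3, at 118, 168, 122 and 111 against 49.7 to 112 (0.78 ± 0.16, limma adjusted p = 0.00418). The list median was 0.09, and -0.02 under median scaling, where that of all probe sets tested was -0.11. Without August replicate 1 and without August replicate 3 the counts were 2 and 3. Of 18 genes of metal and osmotic stress 4 rose and 0 fell, with a median of 0.11; hmit-1.1, a transporter of the osmolyte myo-inositol, read 138, 139, 144 and 129.6 against 54.4 to 105 (0.88 ± 0.16, limma adjusted p = 0.00143). The cadmium-responsive gene cdr-4 rose by 0.37, and without water replicate 1 the count was 2. In the starvation list the fasting genes fil-1 and fil-2 and the lipase genes lipl-1 to lipl-4 were below the filter. Its share is thus not that of a fasting response as a whole. Of its 23 tested genes 5 rose and 1 fell, all but icl-1 being dod genes, with a median of 0.01. Under median scaling it was -0.09, close to the -0.11 of all probe sets tested. Among them dod-17 and dod-19, genes downstream of the factor DAF-16, rose by 0.57 and 0.32, dod-19 on 1 of its 2 probe sets, and dod-23 fell by 0.24 on the log2 scale; leaving out any of 5 arrays, water replicate 1 among them, left 3 rises.

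Detoxification families gave few falls outside the cytochromes P450. Of 36 cytochromes P450 1 rose and 4 fell (13.9%, below the 18.6% of all genes), with a median of -0.01. The gene cyp-25A2 gave 284, 292, 344 and 267 against 327 to 482 with overlap (-0.39 ± 0.09, limma adjusted p = 0.00659), and its call alone of the 5 held with each array left out. Without water replicate 1 the falls numbered 1. Of 45 UDP-glucuronosyltransferases 9 rose and 0 fell (20%, near the 18.6% of all genes), with a median of 0.14, 0.04 under median scaling, where 4 rose. The gene ugt-66 read 157, 168, 164 and 120.3 in replicate 1 against 53.5, 63.8 and 80.3 as lowest, median and highest of the others (1.24 ± 0.16, limma adjusted p = 9.06e-05). The genes ugt-25 and ugt-13 rose by 0.72 and 0.56 without overlap, and without August replicate 1 the count was 5. Of 27 glutathione S-transferases 7 rose and 0 fell (25.9%), with a median of 0.11. The gene gst-10 read 1188, 1198, 1212 and 1062 against 819 to 1004 (0.38 ± 0.07, limma adjusted p = 0.00214), and gst-28 rose by 0.40. Without Z-medium replicate 1 the glutathione S-transferase count was 2, and under median scaling 3 rose and 1 fell.

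Immune effectors gave calls in both directions. Of 37 lysozymes and antimicrobial peptides 10 rose and 0 fell (27.0%), with a median of 0.10, which was 0 within rounding under median scaling, with 5 higher and 2 lower. The saposin-like gene spp-13 read 223, 217, 195 and 166 against 76.0 to 148 (0.91 ± 0.15, limma adjusted p = 0.000509), and the epidermal peptide genes cnc-4, nlp-33 and cnc-8 rose by 0.57, 0.49 and 0.39. Of 80 C-type lectins that passed the filter 7 rose and 8 fell, a share of 18.8%, close to the 18.6% of all genes. Single lectins stood far apart in both directions: clec-266 read 509, 358, 463 and 431 against 746 to 1076 (-1.05 ± 0.11, limma adjusted p = 1.46e-05). In the opposite direction clec-123 read 317, 313, 299 and 266 against 126 to 186 (1.01 ± 0.12, limma adjusted p = 4.25e-05). Without Z-medium replicate 1 the lectins that fell numbered 5.

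Housekeeping lists had few calls or none under the authors' scaling. Of 61 ribosomal protein genes 0 passed by limma and 3 had an unadjusted p under 0.05, with a median of -0.05 and differences from -0.13 to 0.07. The 2 with the smallest p were rps-9 at -0.10 ± 0.04 (limma adjusted p = 0.0958) and rpl-35 at -0.13 ± 0.06 (limma adjusted p = 0.119). Under median scaling 26 of the 61 passed as lower, and after quantile normalization 5. Of 31 proteasome subunits 0 rose and 2 fell (6.45% against 18.6% of all genes), rpn-9 at -0.20 and rpt-1 at -0.15. Both calls were lost without water replicate 1 or August replicate 1, and under median scaling 11 subunits fell.

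Apart from the lists, the rule for the largest changes gave 12 rises and 12 falls among probe sets with 1 gene symbol. Beside the heat shock genes and alg-3, the rises with a known kind of product were acs-10, an acyl-CoA synthetase, and cest-24, of the carboxylesterase family. The signals of cest-24 were 614, 513, 645 and 734 in replicate 1 against 154, 225 and 301 as lowest, median and highest of the others (1.43 ± 0.13, limma adjusted p = 8.89e-06). For acs-10 the 4 arrays read 130.3, 145, 154 and 148 against 17.2 to 97.0, at least 2.45-fold higher with the others set at the filter level. Among the falls was cht-1, a chitinase, at 440.1, 320.4, 441 and 465 against 824, 888 and 1093 (-1.15 ± 0.10, limma adjusted p = 6.87e-06), with a second probe set at -1.05 ± 0.11. The homeobox gene hmbx-1 had 65.9, 21.9, 69.8 and 13.3 against 85.7 to 137, at least 1.73-fold lower with replicate 1 set at the filter level. Both acs-10 and hmbx-1 passed the filter only through the arrays in which they were brighter. The other named genes of these 24, outside dpy-14 and sdz-28 given above, have no function that is stated here.

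Markers of other tissues, which whole worms also contain, moved beside these lists as follows. Of 18 pharynx markers 7 rose and 0 fell (38.9% against 18.6% of all genes), with a median of 0.24. Their summed signal was 11326 to 11620.1 in replicate 1 and 8810.5 to 10449 in the others. The pharyngeal gland gene phat-4 gave 929, 899, 1013 and 920 against 492 to 745 (0.60 ± 0.09, limma adjusted p = 0.000405), and the troponin genes tnt-4 and tnc-2 rose by 0.38 and 0.25. Without water replicate 1 or Z-medium replicate 1 the pharynx count was 4, and under median scaling 3 rose and 1 fell. Intestine markers had 4 rises of 14 (28.6% against 18.6% of all genes) and a median of 0.08. Under median scaling it was -0.03, where that of all probe sets tested was -0.11. Their sums of 41849 to 50294 in replicate 1 overlapped 38198 to 51432 in the others. The intestinal filament gene ifc-2 read 2115, 2114, 2045 and 2063 against 1272 to 1671 (0.52 ± 0.06, limma adjusted p = 3.34e-05), and the microvillar actin gene act-5 rose by 0.32. In the culture arrays ifc-2 read 688 in replicate 1 against 1244 and 1189, the opposite direction (-0.82 on the log2 scale), and over all 15 arrays it did not pass (0.26 ± 0.14, limma adjusted p = 0.237).

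Body wall muscle markers had 4 rises of 19 (21.1% against 18.6% of all genes) and a median of 0.12. The gene unc-89, of the sarcomere's M-line, rose by 0.37 on its brightest probe set and did not pass on 4 others. The sums of the muscle markers, 82187 to 88407 in replicate 1, overlapped 76790.2 to 86742 in the others. Their count was 1 without Z-medium replicate 1 or August replicate 1. Hypodermis markers, of the tissue that makes the cuticle, had 3 rises and 1 fall of 10, a share of 40.0% that passed against 18.6% of all genes, a median of 0.11 and sums of 5179 to 5330.0 that lay within 4868 to 5449. All 3 that rose are also counted in lists above, grd-10 as hedgehog-related and rol-6 and dpy-7 as named collagens. Without August replicate 1 the count of rises was 1. Neuron markers had 2 rises of 18 (11.1% against 18.6% of all genes) and a median of 0.10, which was 0 under median scaling. Markers of coelomocytes, uterus and spermatheca had 1 of 9 (11.1%) and a median of 0.06, or -0.05 under median scaling. All probe sets tested had a median of -0.11 under that scaling. Of 17 male-biased somatic markers 16 were below the filter, and dmd-3 differed by 0.29 ± 0.24 (limma adjusted p = 0.448), with values of 58.0 to 94.4 against 32.3 to 103. The part of these tissues in the results was not tested.

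Sizes varied between the exposure groups. The median difference of sperm genes outside the msp family was 0.59 in water, 0.71 in Z-medium, 0.86 in August and 0.42 in October. The col family gave 0.36, 0.31, 0.47 and 0.25 in that order, and the zygotic embryo markers -0.35, -0.56, -0.33 and -0.28. October thus had the smallest size of the 4 groups in each of these lists, whereas hsp-70 differed most there, by 4.16 on the log2 scale against 2.58, 2.04 and 2.29. In hsp-70 the mean of the others lay below the filter, so the sizes of that gene have no usable level. A test of the difference between lake and control groups found 0 probe sets by limma (0%), with 508 at an unadjusted p under 0.05 and a smallest adjusted p of 0.947. Without Z-medium replicate 2 it found 2, which were cox-5A and lon-2, named after their values were seen. A p that misses the threshold does not show that the groups were alike.

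Replicates 2 and 3 were compared in a fit of the same 12 arrays, with 6 residual degrees of freedom. By limma 1 probe set passed for replicate 3 against replicate 2 (0.00739%), and 927 had an unadjusted p under 0.05. It was that of unc-61, a septin gene, named after its value was seen: replicate 2 read 2646, 2502, 2414 and 2572 and replicate 3 read 1664, 1705, 1475 and 1869.9 in water, Z-medium, August and October (-0.60 ± 0.07, adjusted p = 0.00374). The replicate 1 arrays, at 1417 to 1815, were close to those of replicate 3 in this gene, and the call was lost without water replicate 3 (adjusted p = 0.0518) or August replicate 2 (adjusted p = 0.0508). This comparison set 4 arrays against 4, fewer than the 4 against 8 of the main one. In fits of 4 arrays against 4, replicate 1 against replicate 2 alone gave 1355 probe sets and against replicate 3 alone 1902.

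The deviation of an array from its group mean was also shared between groups, most within number 1. Across probe sets, the deviations of the replicate 1 arrays correlated between groups at 0.46 to 0.57 over the 6 pairs, those of replicate 2 at 0.06 to 0.22 and those of replicate 3 at 0.14 to 0.40. The deviations within a group cancel out, so the correlations of replicates 2 and 3 are not independent of those of replicate 1. All these correlations describe arrays of the same 12, scaled alike, and genes are not independent of each other. The standard deviation over probe sets of replicate 1 minus the mean of the others was 0.31 to 0.38 by group, and that of replicate 3 minus replicate 2 was 0.27 to 0.32.

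**Figure D5:**
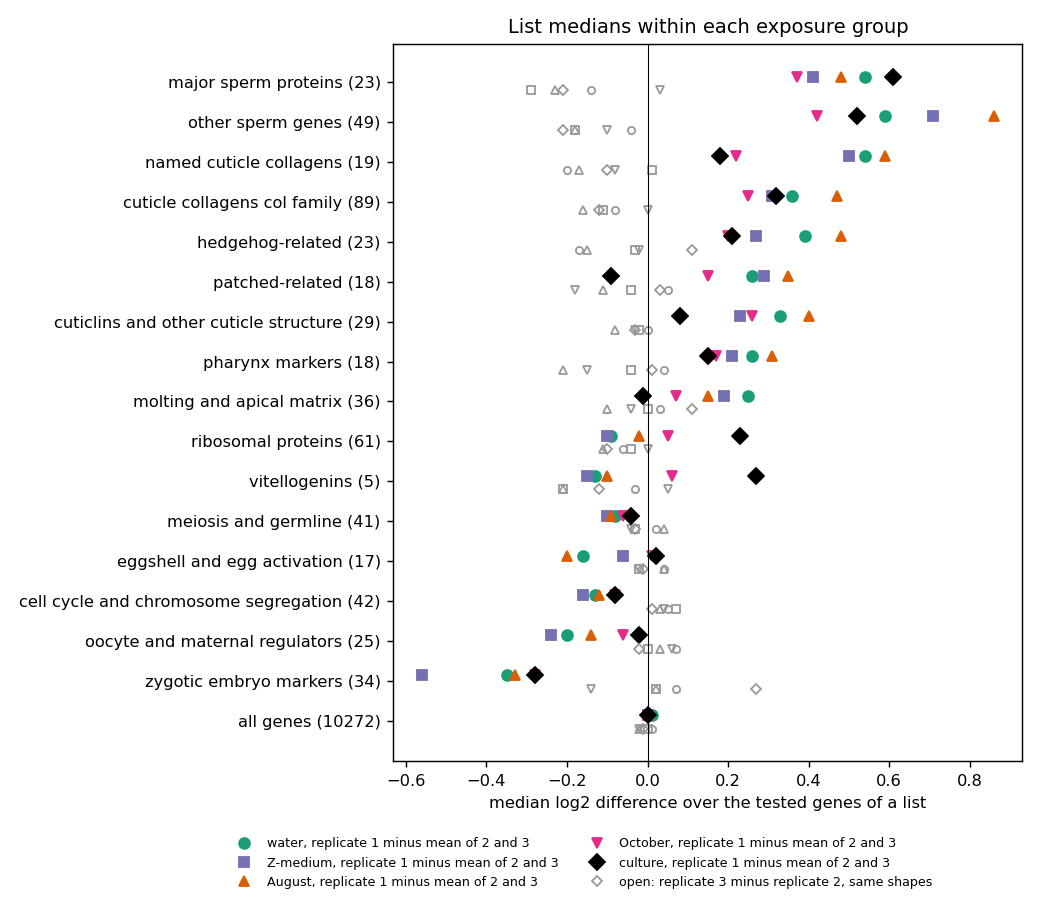
Median log2 difference over the tested genes of each list (number in brackets), for replicate 1 minus the mean of replicates 2 and 3 (filled symbols) and for replicate 3 minus replicate 2 (open symbols of the same shapes) in each exposure group. Sperm and collagen lists lie right of 0 and zygotic embryo markers left of 0 in all 5 groups for replicate 1. In both sperm lists the open symbols lie left of 0, except October's 0.03 for major sperm proteins.

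The 3 culture arrays did not enter the main test. They entered the fits over all 15 arrays, and the rule was chosen with earlier results of these data known. They show the same measure in another exposure group, but what they shared with the other arrays of their number was not known. With 1 array against 2 there was no test. Of the 1490 probe sets called higher, 1234 (82.8%) were also above the mean of the others in culture replicate 1, against 48.8% of all probe sets tested. Of the 904 called lower, 703 (77.8%) were below it, against 51.2% of all. The sizes were smaller, with a median of 0.32 in place of 0.56 for those called higher and -0.15 in place of -0.29 for those called lower.

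By function the culture medians kept the sign of the 4 groups in some lists and not in others. The medians were 0.61 for msp genes, 0.52 for other sperm genes, 0.32 for the col family and -0.28 for zygotic embryo markers. In msp-74 the culture arrays read 5553, 4280.2 and 3022 for replicates 1, 2 and 3, and in col-104 they read 423, 291 and 285, so replicate 1 was the highest in both. The sign was also kept by hedgehog-related genes at 0.21, small heat shock proteins at 0.17, pharynx markers at 0.15, astacin genes at 0.12, cuticlins and other cuticle structure at 0.08 and cell cycle genes at -0.08. It was not kept by molting genes, with a median of -0.01, patched-related genes at -0.09, vitellogenins at 0.27 and ribosomal protein genes at 0.23. Nor was it kept by eggshell genes at 0.02, proteasome subunits at 0.06, UDP-glucuronosyltransferases at -0.04 and neuron markers at -0.06. The same held for oxidative stress genes at -0.01, starvation genes at -0.02 and the 1 male-biased marker tested at -1.07. The heat shock genes did not single out culture replicate 1: hsp-70 read 76.8, 97.8 and 28.3, and hsp-16.2 read 61.7, 115 and 43.9, with replicate 1 between the others in both.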

How the data were processed

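RNA of whole worms was hybridised to a single-channel Affymetrix expression array after biotin labelling, per the labels' protocols. The deposited values were linear signal intensity; the submitters' processing notes name MAS5 and Affymetrix Expression Console 1.2.0.20. With 2% of probe sets trimmed at each end the array means were 500.123 to 500.137, so the authors had scaled all arrays to 1 level. Detection calls and scan files were not used here, and precision is limited by the number of arrays.

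Each signal was converted to log2 without an offset. The 77 control probe sets were left out, and 13529 of the other 22548, with a mean log2 signal over the 12 arrays at or above the 40th percentile (5.88, linear 58.8), were tested. Of all probe sets 20766 had 1 gene symbol in the array annotation (20701 matched to a table of current symbols), 887 had several and were not named, and 895 had none. The array's genome build is not given in the sources used here, so no coordinates are printed.

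A linear model held exposure group and replicate 1 against the others (limma 3.58.1 under R 4.3.3; empirical Bayes moderation with a trend on intensity; 7 residual degrees of freedom), with Benjamini-Hochberg adjustment over all probe sets tested and a threshold of 0.05. Errors of log2 differences are standard errors of this model. Further fits gave replicate 3 against replicate 2, and the replicate 1 difference in lake minus control groups. The steps were tested on simulated data.

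Lists were described by counts and medians, each gene by its brightest probe set, with no set test. Named genes were the 12 largest rises and falls with all 4 groups agreeing, up to 5 members of each list that passed by p, the 2 smallest p where none did, and all vit and hsp-16 genes measured; genes of unstated function were left out. The members, lists and rule were chosen with earlier results of these data known, among them that replicate 1 stood apart. For a mean under the filter the fold is a bound, computed with the filter level in its place. The alternatives were quantile and median scaling, other filters, an offset of 16, no trend, other blocks, subsets of arrays and each array left out.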

Additional observations from a re-analysis of the deposited data

Results flagged for a closer look

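Of 318 sets of arrays examined, 16 held an array far from the others of its set, and chance gives about 1 in 20. Among the replicate 1 arrays, Z-medium was low in cht-1 (320.4, next 440.1) and high in abu-14 (1609, next 1275). October was low in msp-142 (4772, next 5388) and gst-10 (1062, next 1188). Water was low in mbk-2 (2918, next 3235) and gst-28 (495, next 583) and high in unc-89 (2344, next 2113) and vet-1 (112, next 101), and August was high in rps-9 (19775, next 18334). Among the 8 other arrays, Z-medium replicate 2 was low in Y51H7C.8 (15.7, next 38.6), and August replicate 3 was low in Y43F8A.2 (42.2, next 115) and abu-14 (503, next 701). October replicate 2 was high in nspd-4 (2643, next 2245) and gld-3 (1014, next 842) and low in glh-2 (1415, next 1525), and August replicate 2 was high in lin-41 (2345, next 1967).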

How the results depend on the processing

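The replicate 1 calls numbered 2394 in the fit as reported, 3942 under median scaling, 904 in the control arrays alone, 496 in the lake arrays alone and 1355 against replicate 2 alone; each of the last 3 has fewer arrays. With each array left out the count was 1421 to 2365, lowest without Z-medium replicate 1, August replicate 1 (1439) and water replicate 1 (1572). The other settings gave 1642 to 2533 calls, and none of the 2394 changed sign under any of the 25 settings. Replicate 3 against replicate 2 gave 0 calls without the intensity trend and 0 over all 15 arrays, and 0 to 2 with each array left out; the second, without water replicate 2, was ceh-60, chosen after its value was seen. Lake minus control gave 0 to 2 with each array left out. Of 151 named genes that passed, 45 lost the call with at least 1 array left out, 23 under median scaling, 12 after quantile normalization, 61 in the control arrays alone and 85 in the lake arrays alone. Of named genes that did not pass, rps-9 turned to 0.00 over all 15 arrays, and vit-6 to 0.06 over all 15 arrays, 0.06 in the lake arrays alone and 0.00 without Z-medium replicate 1 (-0.10 to 0.00 with each array left out); the cause was not tested. No paired analysis was possible because the replicate number is itself the factor compared; the exposure group is the block, and without it 2533 passed. Signals near or below the filter of 58.8 have no usable level here.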
